A study of Rattus norvegicus with 21 samples.

Results

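Neomycin was compared with PBS in total spinal cord, using the 3 libraries titled as neomycin (NEO) and the 3 titled as PBS, 6 of the 21 libraries in the series. Every group used here came from wild-type LEW/Crl rats, 6 to 8 weeks old. The NEO animals had received neomycin into the trachea for 7 days and the PBS animals the buffer alone. A group that received vancomycin (VANCO, n = 3) by the same route and for the same time shared the PBS controls, and NEO and PBS libraries of sorted CD45low CD11b+ microglia (n = 4 each) gave a separate set of measurements. The cord material was the pellet left after homogenised cord had been cleared of myelin on a Percoll gradient, so it is depleted of myelin and is not intact tissue. The labels do not say whether a library is 1 animal or a pool, and p-values therefore measure the spread between these libraries, which may be technical. The question was how an antibiotic delivered to the airways affects the central nervous system.

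Neomycin is an aminoglycoside, an antibiotic that binds the bacterial ribosome, and vancomycin is a glycopeptide that blocks cell wall synthesis, chiefly in Gram-positive bacteria. Total spinal cord mixes neurons, astrocytes, oligodendrocytes, vascular cells and microglia, the resident macrophages of the central nervous system, which are a small part of it. In such bulk RNA, fewer cells of a type and less RNA per cell cannot be told apart.

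The files identify genes by Ensembl ID without names, and 0 of the 32883 IDs matched the RefSeq gene table (GRCr8) used here. Gene names, promoters and the defining markers of the labelled tissue could therefore not be looked up, and no sequence is shown. Genes are described below by group, and 4 IDs are given in full. NEO libraries held 18823791 to 25114844 counts and PBS libraries 16769410 to 18272910. A single gene took 11.6 to 16.5% of the counts in the 6 libraries, and it was the same gene in each.

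After neomycin, 76 genes were higher and 24 were lower than after PBS in the model that paired libraries of equal number (edgeR quasi-likelihood test, Benjamini-Hochberg adjusted p under 0.05, 14677 genes tested). These were 0.681% of the tested genes, 0.518% higher and 0.164% lower. Without the pairing edgeR called 0 genes. Its lowest adjusted p was then 0.0756 and 400 genes had an unadjusted p under 0.05, so every call below rests on the pairing. The numbers pair the libraries by the data and not by any label: a library's deviation from its group mean correlated with that of its same-number partner between NEO and PBS at r = 0.359 to 0.535 over 3 pairs, across genes, which are not independent replicates. Most of the variation between libraries went with the number: the common biological coefficient of variation was 12.1% unpaired and 5.88% paired.

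**Figure D1:**
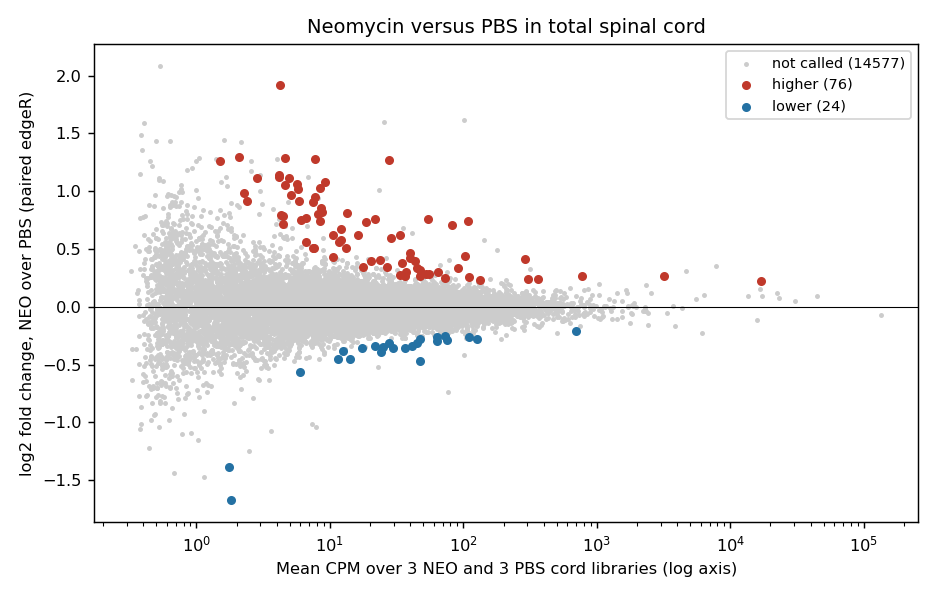
Each point is 1 of 14677 tested genes, with its mean scaled count (CPM) in the NEO and PBS cord libraries on a log axis and its paired log2 fold change on the linear axis. The 76 genes called higher (red) include 15 that were at least 2-fold higher, and the 24 called lower (blue) include 2 that were at least 2-fold lower.

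The median log2 fold change was 0.62 for the 76 raised genes (range 0.22 to 1.92) and -0.34 for the 24 lowered genes (range -1.67 to -0.21), while over all tested genes it was 0.00 (quartiles -0.08 and 0.08). At least a 2-fold change was called for 15 raised and 2 lowered genes. Among all tested genes, called or not, 49 were at least 2-fold higher and 15 at least 2-fold lower. Most genes of the cord thus lay within a narrow band around no difference.

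All 76 raised genes were higher in 3 of 3 same-number pairs, and 23 of the 24 lowered genes were lower in 3 of 3; a direction common to the 3 pairs was also found in 29.9% of all tested genes. The values of the 3 NEO libraries lay wholly above those of the 3 PBS libraries for 53 of the 76 raised genes and wholly below for 8 of the 24 lowered genes. Over all tested genes, 3.27% were wholly higher and 3.25% wholly lower. The other 23 raised and 16 lowered genes overlapped between the groups. Like all the calls, theirs rest on the differences within numbers. For 49 of the 76 raised genes the difference was largest in the pair numbered 2, for 15 in the pair numbered 3 and for 12 in the pair numbered 1. Their median log2 difference was 0.54, 0.69 and 0.57 in pairs 1, 2 and 3. These values chose the genes and are given as a description.

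Scarcer raised genes had larger fold changes, and at low counts only large changes can pass the test. The 32 raised genes with a mean under 10 CPM (counts scaled to an equal library size) had a median log2 fold change of 0.96, the 34 genes from 10 to 100 CPM had 0.41, and the 10 genes with at least 100 CPM had 0.26. The most abundant raised gene averaged 17132 CPM. Of the lowered genes 3 were under 10 CPM (median -1.39), 18 lay between 10 and 100 CPM (median -0.34) and 3 were above (median -0.26). From 10 CPM upward the medians of the raised and lowered genes thus differed little in size, though both had passed the same test. The largest changes there were increases. From 10 to 100 CPM they reached 1.27 against -0.47, and at 100 CPM or more 0.75 against -0.27. The larger overall median of the raised genes goes with the 32 of 76 that were under 10 CPM. None of the 1468 genes of lowest abundance was called, and the 1468 most abundant gave 11 raised and 3 lowered. Calls were therefore spread over abundant and scarce transcripts, apart from the scarcest.

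The raised gene with the largest change was ENSRNOG00000022839. It had 5.43, 9.10 and 5.71 CPM in NEO replicates 1, 2 and 3 and 2.31, 1.75 and 1.23 CPM in the PBS replicates of the same numbers. All 3 NEO libraries were above all 3 PBS libraries, and the NEO library numbered 2 was the highest of the 6. These values come from 107, 172 and 136 counts in NEO and 43, 32 and 20 in PBS. The mean was 6.75 ± 2.04 CPM (SD, n = 3) in NEO and 1.76 ± 0.538 CPM in PBS. On the log2 scale neomycin exceeded PBS by 1.92 (SE 0.19, paired edgeR adjusted p 2.14e-06, higher in 3 of 3 pairs), and the unpaired edgeR adjusted p was 0.128. After vancomycin ENSRNOG00000022839 was at 1.95, 2.90 and 1.39 CPM, a log2 difference from PBS of 0.22 (SE 0.23, edgeR adjusted p 1.00). The direct comparison of neomycin with vancomycin, which called 0.436% of the tested genes, gave a difference of 1.69 on the log2 scale (SE 0.18, paired edgeR adjusted p 3.61e-06). The gene was thus higher after neomycin than after either PBS or vancomycin. It was chosen for its difference from PBS, and both comparisons use the same NEO libraries, so the second is not separate support.

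ENSRNOG00000001369 was the second raised gene under the rule for printing IDs. Its NEO values were 2.03, 3.81 and 3.06 CPM in replicates 1, 2 and 3, and its PBS values 1.02, 1.43 and 1.17 CPM. The groups did not overlap, although the gene is scarce, with 40 to 73 counts in NEO and 19 to 26 in PBS. On the log2 scale the paired difference was 1.30 (SE 0.25, edgeR adjusted p 0.00608, higher in 3 of 3 pairs), with an unpaired edgeR adjusted p of 0.529. The call was lost without NEO replicate 2 (edgeR adjusted p 0.0678), NEO replicate 3 (0.104) or PBS replicate 2 (0.0789), and in DESeq2 (adjusted p 0.0893). After vancomycin the values of ENSRNOG00000001369 were 1.46, 1.25 and 0.638 CPM, around those of PBS. Neomycin exceeded vancomycin by 1.40 on the log2 scale (SE 0.25, edgeR adjusted p 0.00304), again with the NEO libraries that chose the gene.

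ENSRNOG00000016837 had the largest decrease. PBS replicates 1 and 2 had 4.56 and 3.62 CPM and NEO replicates 1 and 2 had 1.27 CPM each. The libraries numbered 3 held almost none of it, with 2 counts in PBS, 1 in NEO and 3 in VANCO, and because of this the NEO and PBS ranges overlap. The paired log2 difference of -1.67 (SE 0.26, edgeR adjusted p 0.000592, lower in 3 of 3 pairs) thus came from the numbers 1 and 2, and unpaired the SE was 1.14 with an edgeR adjusted p of 1.00. Without NEO replicate 1 the paired edgeR adjusted p was 0.0668, and without all libraries of number 1 it was 0.111. DESeq2 gave this gene no adjusted p for neomycin against PBS, and thus no call. ENSRNOG00000016837 was at 1.35 and 0.850 CPM in VANCO replicates 1 and 2, with a log2 difference of -1.79 against the same PBS libraries (SE 0.27, edgeR adjusted p 0.00614). It was the 1 gene called in that comparison, or 0.00681% of those tested. Both antibiotics were set against the same PBS libraries, of which the 2 high ones carry either difference. The vancomycin comparison called 0 genes lower without PBS replicate 1, PBS replicate 2, VANCO replicate 1 or VANCO replicate 2, and 0 in DESeq2, where 67 had an unadjusted p under 0.05. Neomycin and vancomycin differed by 0.11 on the log2 scale (SE 0.33, edgeR adjusted p 0.957).

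The other lowered ID, ENSRNOG00000045846, changed less and in all 3 numbers. It had 4.26, 4.39 and 5.75 CPM in NEO replicates 1, 2 and 3 and 6.87, 6.91 and 7.51 CPM in PBS, from 83 to 137 and 122 to 128 counts. Each NEO library was below each PBS library. The paired log2 difference was -0.56 (SE 0.13, edgeR adjusted p 0.0285), and unpaired the edgeR adjusted p was 0.647. Of the 6 NEO and PBS libraries only NEO replicate 3 could be left out with the call kept; without NEO replicate 1, NEO replicate 2, PBS replicate 1, PBS replicate 2 or PBS replicate 3 the edgeR adjusted p was 0.189, 0.118, 0.135, 0.0946 and 0.117. DESeq2 gave an adjusted p of 0.323. VANCO libraries had 5.62, 5.80 and 5.86 CPM, below every PBS library, with 1 of them inside the NEO range, and ENSRNOG00000045846 passed neither the test against PBS (edgeR adjusted p 1.00) nor that against neomycin (0.574).

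**Figure D2:**
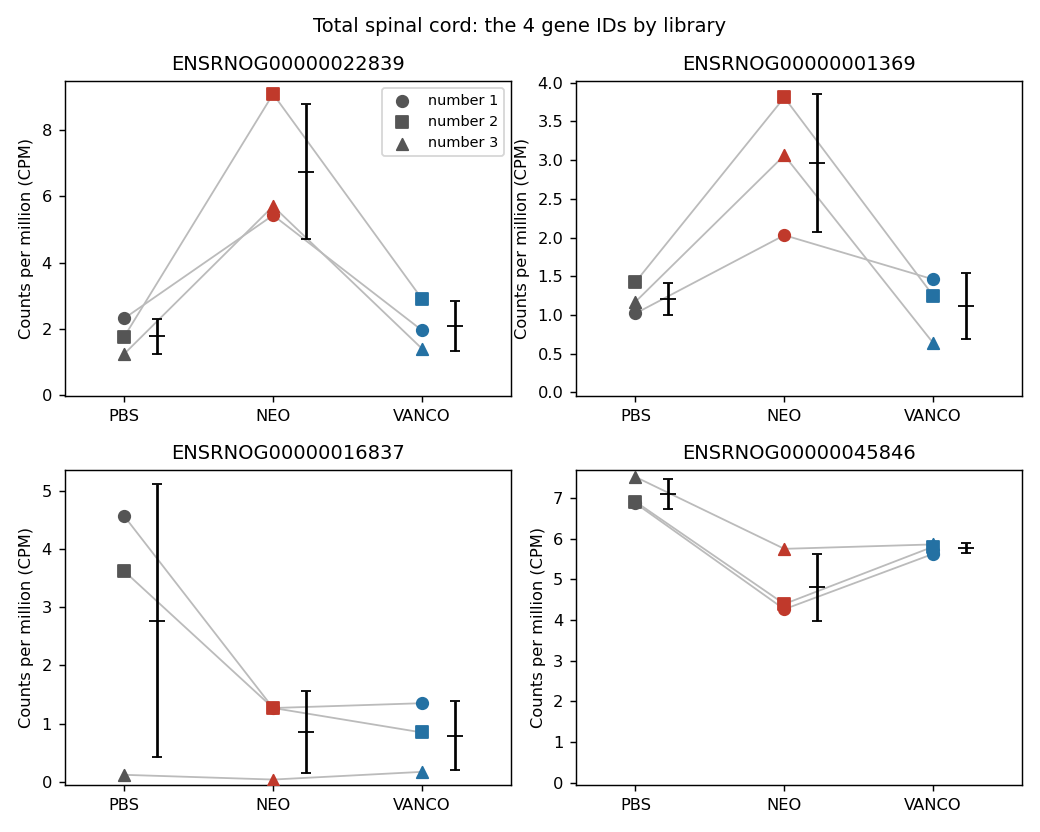
CPM of the 4 printed IDs in each PBS, NEO and VANCO cord library (linear axis, n = 3 per group), with grey lines joining libraries of equal number and black bars for the mean and SD. The NEO libraries are wholly above PBS in the upper panels and wholly below PBS for ENSRNOG00000045846, while for ENSRNOG00000016837 the libraries numbered 3 are near 0 in every group.

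How far the calls carried over to libraries that had not chosen them was read by calling genes without all libraries of 1 number and then measuring those genes in the left-out NEO and PBS pair. Genes called higher mostly were higher in the left-out pair. This held for 60 of 71 genes in pair 1 (84.5%, against 48.6% of all genes), 144 of 204 in pair 2 (70.6% against 52.5%) and 42 of 46 in pair 3 (91.3% against 49.0%). Their median log2 difference in the left-out pair was 0.47, 0.16 and 0.58, smaller than the 0.91, 0.33 and 0.88 in the libraries that chose them. Only 6 genes were called lower without number 1, and 6 of 6 were lower in pair 1, against 51.4% of all genes. In the other pairs the share was below that of all genes: 75 of 194 were lower in pair 2 (38.7%, against 47.5% of all genes) and 5 of 13 in pair 3 (38.5% against 51.0%). The median of these lowered genes was 0.04 in pair 2 and 0.15 in pair 3. The difference between raised and lowered genes was not tested.

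**Figure D3:**
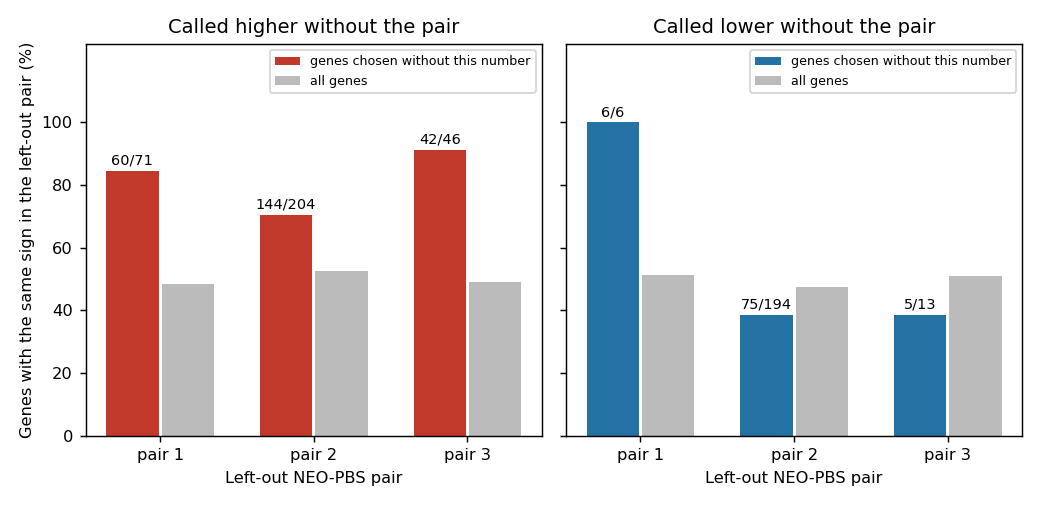
Share of genes (percent, axis from 0) with the same sign in a NEO and PBS pair that took no part in calling them (coloured bars, with counts above) and the share of all genes with that sign in the same pair (grey bars). Raised genes stand at 70.6 to 91.3% and lowered genes at 38.5 to 100% over the 3 pairs.

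Across all genes the 3 pairs shared little. The log2 differences of the 14677 tested genes correlated between pairs 1 and 2 with r = 0.079 (Spearman's rho 0.026), between pairs 1 and 3 with r = 0.015 (rho 0.202) and between pairs 2 and 3 with r = 0.152 (rho 0.052). Genes are not independent replicates, and these values only describe the pairs, which have no library in common. None of the pairs resembled another closely over the whole transcriptome.

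To see which part of the tissue the called genes belong to, genes were classed by their level in sorted microglia against total cord. The VANCO libraries were used for this, since they share no library with the NEO and PBS cord groups. The separation is partial. The tissue fit held all 21 libraries for its filter, scaling and spread, and the VANCO cord libraries were in the model that called the genes. Genes at least 8-fold higher in microglia (edgeR adjusted p under 0.05) are called microglia-enriched, and those at least 8-fold higher in cord cord-enriched. That tissue contrast called 84.1% of its genes. Of the genes tested for neomycin 894 were microglia-enriched and 3531 cord-enriched.

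Microglia-enriched genes gave 15 raised genes and 0 lowered ones. That is 1.68% raised, against 0.518% of all tested genes. The 15 genes ranged from 0.24 to 1.28 in log2 fold change (median 0.80), had a median of 7.75 CPM, and did not overlap between NEO and PBS for 13 of them, where 3.27% of all tested genes were wholly higher; they were chosen as higher by these libraries. The 879 other microglia-enriched genes did not pass the test, and the median log2 fold change of the whole class was 0.03. Cord-enriched genes gave 8 raised and 10 lowered genes, 0.227% and 0.283% against 0.518% and 0.164% of all tested genes, with a class median of -0.02. The remaining called genes, 53 raised and 14 lowered, belonged to neither class. With RLE factors for the tissue contrast, 12 of the raised genes were microglia-enriched, 1.80% of the 665 genes then in that class. The cord-enriched class then held 3832 genes, with 10 raised (0.261%) and 11 lowered (0.287%).

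Whether the cord pellets held more microglial RNA after neomycin was read from the share of all counts that fell on each class. Microglia-enriched genes made up 1.499, 1.487 and 1.349% of the NEO libraries numbered 1, 2 and 3 and 1.431, 1.386 and 1.353% of the PBS libraries. The NEO share was higher in pairs 1 and 2, by 1.05 and 1.07 times, and 0.998 times that of PBS in pair 3. Means were 1.45 ± 0.0831% (SD, n = 3) in NEO, 1.39 ± 0.0391% in PBS and 1.37 ± 0.0507% in VANCO, with an exact two-sided permutation p of 0.4, where 3 libraries against 3 cannot go below 0.1. The difference of 0.0553 percentage points became 0.103 without NEO replicate 3 and 0.0285 without NEO replicate 1. Cord-enriched genes took 39.8 ± 1.44% of counts in NEO and 40.8 ± 1.18% in PBS (SD, n = 3, exact two-sided permutation p 0.4). These permutations ignore the pairing: within pairs 1, 2 and 3 the NEO share was 0.962, 0.983 and 0.983 times that of PBS. The single most counted gene belongs to this class, and without it the shares were 30.9 and 31.4% and the ratio in pair 3 was 1.01. Leaving out 1 library moved the difference from -0.99 percentage points to between -1.80 (without NEO replicate 3) and -0.31 (without PBS replicate 3). The largest 95% Wilson half-width in a cord library was 0.0236 percentage points, which covers counting error only. The part of cell composition in the result was not tested.

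**Figure D4:**
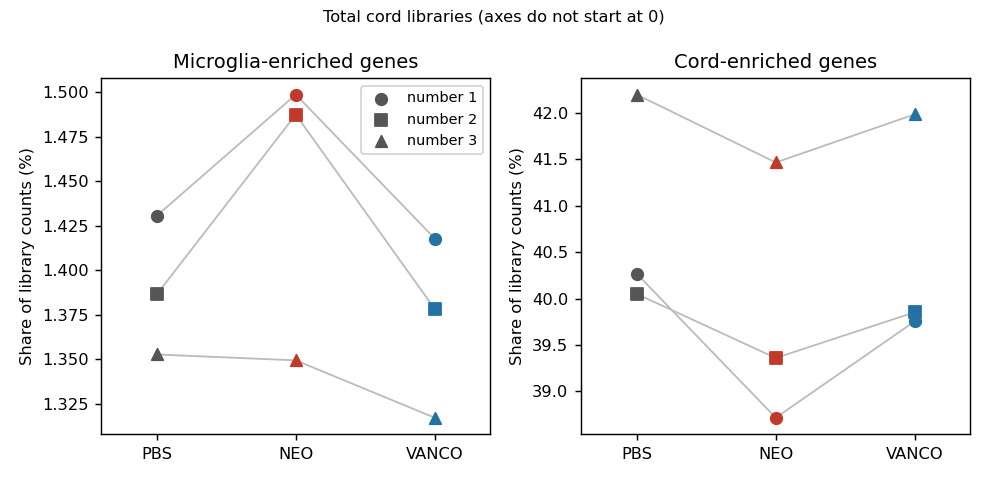
Share of library counts (percent, axes not from 0) on microglia-enriched and cord-enriched genes in each cord library, with lines joining libraries of equal number. The microglia-enriched share lies between 1.317 and 1.499% in all 9 libraries, and the NEO libraries numbered 1 and 2 are the highest.

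The same genes were then read in sorted microglia, whose libraries are separate from those of the cord. The labels do not say whether cord and microglia libraries of equal number came from the same animals. Agreement between the tissues is therefore not shown to be independent. Of the 72 raised genes measured there, 59 (81.9%) were higher after neomycin and 13 lower, against 48.8% higher among all 11862 genes tested in both tissues. Their median log2 fold change in microglia was 0.43 (quartiles 0.12 and 0.91). The paired edgeR test in microglia, which called 0.533% of its genes higher, called 22 of the 72 higher and 0 lower. The 22 genes are 30.6% of the raised cord genes measured in both tissues and 34.4% of the 64 raised microglia genes. By class, 6 of the 15 microglia-enriched and 16 of the 53 unclassed raised genes passed in microglia, and 0 of the 4 cord-enriched ones that could be measured. The 15 genes raised at least 2-fold in cord included 14 measured in microglia, of which 12 were higher (median log2 fold change 0.96) and 9 passed.

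In NEO replicate 2 of the microglia, cord-enriched genes took 4.59% of the counts (95% Wilson interval 4.58 to 4.61%). They took 0.481 to 0.604% in the other NEO microglia libraries. The library numbered 2 also had the highest such share in the other microglia groups, 1.17% in PBS and 1.01% in VANCO. Without NEO replicate 2, 60 of the 72 genes were higher (49.9% of all genes were), the median was 0.36 and 26 passed as higher, in a fit where 1.14% of all genes did. Of the 19 lowered genes measured in microglia 12 were lower (63.2%, against 51.2% of all genes), the median was -0.11, and 1 passed as lower, where 0.215% of all genes tested in microglia did. Without NEO replicate 2 of the microglia that median was -0.01 and 10 of 19 were lower (52.6%, against 50.1% of all genes).

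In microglia ENSRNOG00000022839 had 8.85, 17.9, 43.4 and 7.88 CPM in NEO replicates 1, 2, 3 and 5 and 2.83, 1.90, 9.64 and 4.23 CPM in PBS. Each NEO value was above its same-number PBS value, but the ranges overlapped because PBS replicate 3 was above NEO replicates 1 and 5. The paired difference was 1.84 on the log2 scale (SE 0.31, edgeR adjusted p 0.0243), and the call was lost without NEO replicate 2 (difference 1.78, edgeR adjusted p 0.0826). ENSRNOG00000001369 had 4.85, 4.34, 4.88 and 4.03 CPM in NEO and 2.74, 0.595, 1.06 and 1.28 CPM in PBS, with no overlap and a paired log2 difference of 1.76 (SE 0.29, edgeR adjusted p 0.0222). Both IDs thus rose in each tissue under the paired model, and unpaired the edgeR adjusted p in microglia was 0.816 and 0.335. For ENSRNOG00000045846 the difference in microglia was -0.16 (SE 0.32, edgeR adjusted p 0.823). ENSRNOG00000016837 had 0 to 3 counts in each microglia library, at or under the floor of 3 counts, and no fold is given.

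**Figure D5:**
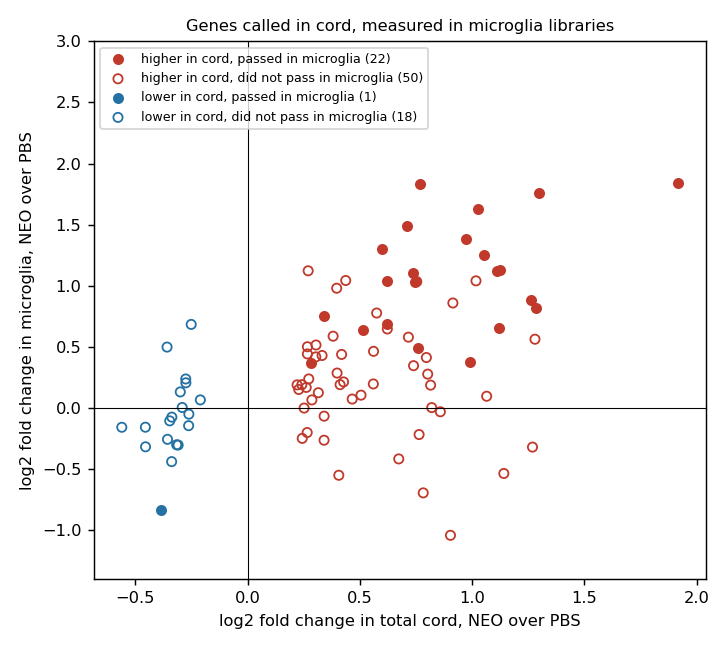
Paired log2 fold changes of NEO over PBS in total cord (x axis) and in sorted microglia (y axis) for the 91 genes called in cord and measured in microglia, filled where the microglia test was passed. Of 72 raised genes 59 lie above 0 on the y axis, and of 19 lowered genes 12 lie below it.

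Whether the neomycin difference itself differed between cord and microglia was tested as an interaction over all 21 libraries, where edgeR called 0.193% of the genes (30 of 15546). Of the 72 raised genes 1 passed and of the 19 lowered genes 0, which does not show that the effects were equal in size. The 1 that passed (interaction edgeR adjusted p 0.00334) is a microglia-enriched gene. Its log2 fold change was 1.27 in cord and -0.32 in microglia, where it was not called (edgeR adjusted p 0.350). On the log2 scale the cord difference exceeded the microglia difference by 0.12 for ENSRNOG00000022839 (SE 0.46, edgeR adjusted p 0.954) and the cord minus microglia difference was -0.37 for ENSRNOG00000001369 (SE 0.41, edgeR adjusted p 0.815).

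Of the 100 calls, 30 (29 raised, 1 lowered) remained under each of 11 changes of method or samples: every NEO or PBS cord library left out in turn, other scaling factors and filters in edgeR, and DESeq2. ENSRNOG00000022839 was among them. All 100 genes kept their direction in the same fits and without the pairing. Those fits reuse most or all of the libraries that chose the genes, so a kept direction is no separate support. Not among the 11 were limma-voom, which kept 91 of the calls, the compared groups alone (81 kept) and the fit without the pairing (0 kept). The fits without all libraries of number 1, 2 or 3 were also not among them and kept 48, 87 and 41. DESeq2 with the pairing called 54 genes higher and 3 lower, and 50 of its raised and 3 of its lowered genes were among those above. Leaving out NEO replicate 1 reduced the 100 calls to 65, and leaving out PBS replicate 3 to 57. Without all libraries of number 2 it was 398, in almost equal parts higher (204) and lower (194), so the excess of raised genes did not hold in that fit.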

How the data were processed

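RNA was sequenced from total cord and sorted microglia, with 1 deposited table per library. The authors deposited raw read counts for 32883 Ensembl gene IDs. The submitters' processing notes name genome build rn6, featureCounts 1.5.0-p1, STAR 2.5.2a and bcl2fastq 2.20.0.422. Not given in the sources used here: annotation release, strand setting and handling of multiply aligned reads. Counts of overlapping or near-identical genes are therefore uncertain.

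Groups and replicate numbers come from the sample titles. No cord library repeated another of its group: chi-square per degree of freedom was 8.35 to 27.8 over genes with at least 10 counts in the pair. Microglia libraries and pairs across groups were not compared in this way. The test was that of edgeR 4.0.16 under R 4.3.3 (filterByExpr, TMM factors, robust quasi-likelihood F test, Benjamini-Hochberg, threshold 0.05). The 9 cord libraries formed 1 model with group means and the replicate number as a block; microglia (12 libraries) and the interaction (21 libraries) were fitted likewise, and the tissue contrast without a block. Standard errors are the log2 fold change divided by the root of F. CPM are counts divided by the TMM-scaled total of the genes kept, on the usual CPM scale. Single-library log2 values used a prior count of 2.

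The block is part of how this comparison was defined. Deviations from group means correlated at r = 0.359 to 0.588 over the 9 same-number cord pairs and -0.485 to 0.00909 over the 18 others, a gap that is partly built in because deviations cancel within a group. Each of the 9 libraries correlated best with its own number. The comparison, its tests and its gene lists were chosen with earlier results of these data known.

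The 4 printed IDs are the 2 higher and 2 lower genes with the largest change among those called, changed alike in 3 of 3 pairs and with a mean of at least 1 CPM, the rule for IDs without names. The 29 gene and marker lists need symbols and were not run. DESeq2 1.42.0, limma 3.58.1 with voom, other scaling and filters, fewer groups and each library left out were the alternatives. Tissue classes from VANCO libraries, their RLE version, the reading of left-out pairs and of microglia without NEO replicate 2 were added later. The code was tested on simulated data.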

Additional observations from a re-analysis of the deposited data

Results flagged for a closer look

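In the microglia libraries used for comparison, the CPM of the printed IDs and the shares of counts on both gene classes were examined in 15 combinations of measure and treatment group of 4 for a library set apart, with the gap to its nearest neighbour divided by the range of the group (Dixon). Chance alone gives about 1 in 20, and 3 were found. NEO replicate 2 had a cord-enriched share of 4.59% against 0.481 to 0.604% in the other NEO microglia libraries. Its microglia-enriched share was 23.2% against 31.8 to 33.0%. PBS replicate 2 had a cord-enriched share of 1.17% against 0.642 to 0.712%. VANCO replicate 2 also had the highest cord-enriched share of its group, 1.01%, but was not flagged by this rule. The VANCO libraries set the gene classes. The cord groups of 3 are too small for this rule. The neomycin difference itself differed between cord and microglia for 30 genes in the paired interaction test in edgeR, 18 with a higher and 12 with a lower log2 fold change in cord. This split depended on single libraries of either tissue. Leaving out 1 NEO or PBS cord library left fewer genes, from 8 higher and 2 lower to 17 and 3. In microglia, leaving out NEO replicate 1, 3 or 5 gave 18 higher and 44 lower, 11 and 25, and 56 and 106. Leaving out PBS replicate 1 or 3 of the microglia gave 12 and 22, and 11 and 16. Leaving out NEO replicate 2 of the microglia gave 105 higher and 25 lower, and PBS replicate 2 of the microglia gave 45 and 6.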

How the results depend on the processing

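Without the replicate block edgeR called 0 genes for neomycin against PBS in cord (100 with it; 400 at an unadjusted p under 0.05), 0 against vancomycin (64 with it; 331), 0 for vancomycin against PBS (1 with it; 124), 5 for neomycin in microglia (94 with it) and 0 for the interaction (30 with it; 438). DESeq2 with the block called 57, 41, 0 (67 at an unadjusted p under 0.05), 314 and 172 in the same order, and limma-voom 5 for the interaction. Without a filter on low counts the 3 cord comparisons gave 251, 173 and 8. With the compared groups alone vancomycin against PBS gave 4 and neomycin in microglia 16. Leaving out 1 library, or in cord all libraries of a number, gave 57 to 398 for neomycin against PBS (57 to 89 with 1 library left out; 78, 398 and 59 without number 1, 2 and 3), 36 to 129 against vancomycin (36 without VANCO replicate 1; 42 and 129 without number 1 and 2), 0 to 5 for vancomycin against PBS (459 to 627 at an unadjusted p under 0.05 in the fits with 0), 26 to 300 in microglia (300 without NEO replicate 2) and 10 to 162 for the interaction. The causes of these differences were not tested. Fits without a filter held more genes, and fits with libraries left out held fewer libraries. The contrast of microglia with cord in PBS libraries stayed within 1.5 times of its 13065 calls in all alternatives run, with a median over all genes of 0.21 with TMM and -0.29 with RLE factors. For the VANCO libraries, which set the gene classes, RLE factors were the 1 alternative run. Depth limits the scarcest printed IDs, such as ENSRNOG00000001369 with 19 to 26 counts in the PBS cord libraries.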
